A study of Mus musculus with 24 samples.

Results

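The interval features were the non-control features of a 1-colour Agilent mouse array whose probe name begins with A_30_P and whose gene name is a genomic interval with a strand, F for forward or R for reverse, instead of a gene. This rule used the names on the array and no measured value. It took 16181 of the 55681 non-control features (29.1%), which lay in 4607 stranded intervals of 3540 genomic intervals. Features for both strands were present in 1067 intervals and for 1 strand in 2473. All sequences were 60 bases long, and coordinates are those of the scanner files (build mm9).

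Hippocampal RNA came from male C57BL/6 pups killed on P9, with both hippocampi of 1 animal on each of 15 arrays. The 5 Con pups were untreated littermates that stayed with the dam and were handled minimally. The 5 MS2 pups received 2 mg/kg morphine and the 5 MS5 pups 5 mg/kg, in each case from P5 just before episodes of simulated apnea (nitrogen, then oxygen), combined with daily isolation from the dam in a warmer. No group had the stress without morphine, so the effects of morphine and of stress cannot be told apart in any comparison with Con. Treated and Con pups shared litters, but the litter of each array is not given in the sources used here.

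Long intergenic non-coding RNAs are transcripts made from DNA between protein-coding genes. Many are capped, spliced and polyadenylated like mRNAs, but most are present at lower levels and in fewer cell types. Intervals of this kind are drawn from marks of active chromatin or from cDNA collections, so the strand and the ends of a transcript inside an interval may be unknown. A feature measures only the RNA that binds its own 60 bases, and signal differs between features by how well they bind as well as by how much RNA is there.

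The sequences that carried the results are given first, each with the mm9 position of the feature and its strand. The first set holds bright features, in which capitals mark the hexamer AATAAA, a common polyadenylation signal.
chr11:22686751-22686810 R: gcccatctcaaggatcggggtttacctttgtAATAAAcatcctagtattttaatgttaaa
chr19:5802130-5802189 R: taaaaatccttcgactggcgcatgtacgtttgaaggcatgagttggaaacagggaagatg
chr17:17482318-17482377 R: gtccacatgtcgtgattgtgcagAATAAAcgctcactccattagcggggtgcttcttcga

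The next set holds bright features that share a run of bases with the feature of a named gene elsewhere on the array, and capitals mark the shared run. The partner genes are, in order, Rps29, Mif, Cox5b and Rps16, and the first feature has no position in the files.
chr7:108209996-108216032 R, feature unmapped: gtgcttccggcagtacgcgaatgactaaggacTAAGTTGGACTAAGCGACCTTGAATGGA
chr17:48073450-48073509 F: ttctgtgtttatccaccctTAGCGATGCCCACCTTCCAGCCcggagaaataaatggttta
chr4:33364816-33364875 R: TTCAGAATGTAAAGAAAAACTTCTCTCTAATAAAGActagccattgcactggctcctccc
chr2:167106861-167106920 R: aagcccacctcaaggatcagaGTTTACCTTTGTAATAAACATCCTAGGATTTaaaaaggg

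Features rich in G and C are shown because they were bright beside dim features of the same interval, and capitals mark their longest run of G and C.
chr14:78936616-78936675 F: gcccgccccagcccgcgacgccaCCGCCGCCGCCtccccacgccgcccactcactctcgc
chr12:73862399-73862458 F: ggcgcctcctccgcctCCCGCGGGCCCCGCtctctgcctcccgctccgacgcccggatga
chrX:18814996-18815055 F: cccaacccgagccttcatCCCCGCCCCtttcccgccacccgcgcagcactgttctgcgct

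The interval with the largest difference between its strands had 1 feature on each, and capitals mark the 47 bases in which they are the reverse complement of each other.
chr11:35810479-35810538 F: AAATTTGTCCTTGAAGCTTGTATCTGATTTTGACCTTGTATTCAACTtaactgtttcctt
chr11:35810466-35810525 R: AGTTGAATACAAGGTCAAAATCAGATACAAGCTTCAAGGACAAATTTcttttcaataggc

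Features that were lower in MS5 than in Con come next, with AATAAA in capitals.
chr8:67554789-67554848 F: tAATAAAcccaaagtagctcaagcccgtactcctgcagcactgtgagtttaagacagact
chr17:26913157-26913216 R: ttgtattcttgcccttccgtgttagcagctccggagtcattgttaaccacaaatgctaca
chr14:49412903-49412962 F: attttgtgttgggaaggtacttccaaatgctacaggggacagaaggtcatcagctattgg
chr14:49412964-49413023 F: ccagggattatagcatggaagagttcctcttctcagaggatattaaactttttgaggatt
chr1:90340592-90340651 R: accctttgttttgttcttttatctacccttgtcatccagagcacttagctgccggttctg

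The last set was higher in MS5 than in Con, and capitals mark the longest run that both sequences hold, of 10 bases.
chr3:127184302-127184361 F: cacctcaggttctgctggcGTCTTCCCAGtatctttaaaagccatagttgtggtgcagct
chr7:71094345-71094404 F: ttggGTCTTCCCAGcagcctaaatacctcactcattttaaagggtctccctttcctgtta

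Several arrays stood apart. On MS5 replicate 9 the mean of 7 Xist features was 12.67, against 5.98 to 6.25 on the other arrays, although all pups are labelled male. MS2 replicate 4 had hippocampal neuron markers at a mean of 10.04 (11.87 to 12.32 elsewhere) and hypothalamus and thalamus markers at 10.74 (7.44 to 9.22 elsewhere). Choroid plexus markers averaged 9.55 on MS5 replicate 9 and 8.74 on MS5 replicate 14, against 10.78 to 12.02 on the other 13 arrays. MS2 replicate 5 had a median spot signal of 58.2, against 121 to 154 elsewhere. These are means of quantile-normalized log2 signals, the scale used throughout. The arrays lay on 2 slides, each with its own scan date, that each held all 3 groups. Every array named in this paragraph was on slide 2, which also held Con replicates 16 and 19 and MS5 replicate 12. The number of arrays limits the precision of every value.

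Most interval features were dim. In Con their median log2 signal was 6.41 (quartiles 6.01 and 7.46), while features named for a RefSeq mRNA had a median of 9.21 and those for a RefSeq non-coding RNA 7.06. The lowest Con mean was 5.74 and the highest 17.86. A mean above 10 was found for 1003 interval features (6.20%), against 41.9% of mRNA features, and above 14 for 78 (0.482%), against 6.92%. The array median of the interval features was 6.40 to 6.42 in Con, in MS2 and in MS5, where quantile normalization gives all arrays the same overall distribution.

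**Figure D1:**
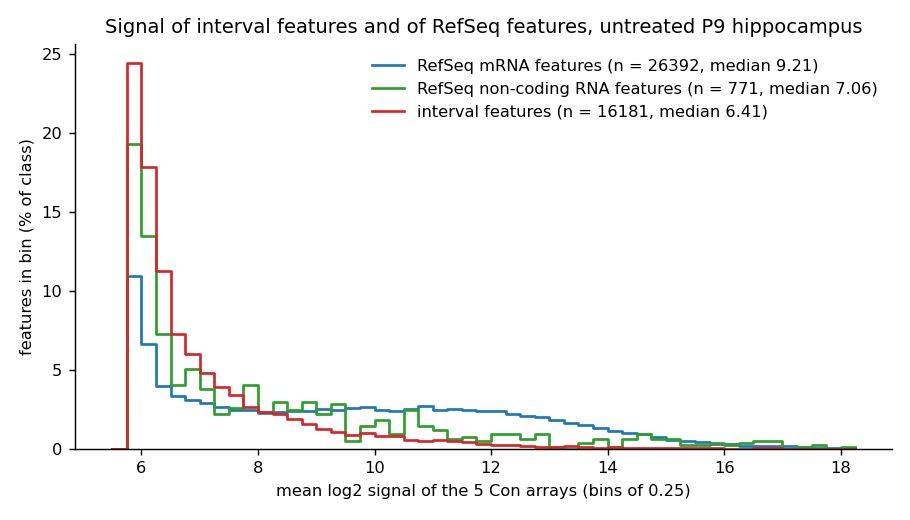
Distribution of mean log2 signal over the 5 Con arrays, by class of feature. The interval features gather near the low end, with a median of 6.41 against 9.21 for RefSeq mRNA features.

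The scanner software calls a spot well above background when its signal clearly exceeds that of its surroundings. This held on all 15 arrays for 7941 interval features (49.1%), on some arrays for 4598 and on none for 3642 (22.5%). The corresponding shares of mRNA features were 78.7% on all and 9.69% on none. By array, the share of interval features well above background was 62.0% to 69.2% in Con (median 63.1%), 50.5% to 66.9% in MS2 (65.7%) and 58.3% to 69.0% in MS5 (65.7%). The groups overlapped, and the lowest value belonged to MS2 replicate 5, the array with the dimmest spots.

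Features of the same interval often disagreed. Among 3917 stranded intervals with 2 or more features, the brightest and the dimmest differed by a median of 0.954 in Con. The difference exceeded 2 (log2) in 957 (24.4%) and reached 11.38. In 1174 stranded intervals 1 feature was well above background on every array and another on none. Every feature was well above background on all arrays in 1323 stranded intervals, and no feature on any array in 281.

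Signal was compared with interval length. Lengths ran from 62 to 7128487 bases, with a median of 10676. Spearman's rho between length and mean Con signal was 0.0706 over the 4607 stranded intervals, as a description, since intervals overlap and share arrays, and it was 0.0672 to 0.0746 on single Con arrays. By the brightest feature of each stranded interval it was 0.141. Intervals of up to 1 kb had a median of 6.42, and the longer classes had medians of 6.63 to 6.66. The shortest interval, chr10:83399729-83399790_F, read 6.66 ± 0.05 (SD, n = 5). The longest, chr7:39351858-46480344_R, had 1 feature, which read 5.86 ± 0.02 (SD, n = 5) and was well above background on 0 arrays.

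Chromosomes differed in their share of detected features. Chromosome 1 held the most interval features (1199) and chromosome 19 the fewest among those numbered (322). Chromosome 19 had the highest median Con signal, 6.72, with 59.3% of its features well above background on all arrays. Chromosome 9 had the lowest median, 6.24, with 39.9%, and the X chromosome lay between, at 6.42 with 50.1%. No test was made of these shares, because features of 1 interval are not independent.

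Base composition also moved with signal. The median number of G and C among 60 bases was 27 in interval features and 25 in the others. Spearman's rho between that number and mean Con signal was 0.201 over the interval features, again as a description. Median signal was 5.99 below 20 G or C (393 features, 28.8% well above background on all arrays) and 7.70 at 40 or more (232 features, 85.8%). Of these 232, 196 had a partner in the same stranded interval with fewer G and C. They exceeded their partners by a median of 0.811, with 93 more than 1 above and 19 more than 1 below.

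The 3 GC-rich features printed above had the largest such excess. The feature of chr14:78924115-78938125_F, with 50 G or C, read 17.27 in Con, and 5 partners had a median of 6.06. In chr12:73838608-73862621_F the feature with 48 read 16.03 against 5.84 for 3 partners, and in chrX:18744367-18853992_F the feature with 42 read 15.42 against 5.91 for 3 partners. Each was well above background on 15 arrays and shared no run of 20 or more bases with a feature outside the rule. Whether transcript amount or binding of GC-rich sequence set these signals was not tested.

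The hexamer AATAAA, searched on the printed strand only, was in 634 interval features (3.92%) and in 12.6% of the 39500 other features. Interval features with it had a median Con signal of 6.43 and those without it 6.41. The shares well above background on all arrays were 49.4% and 49.1%. A match describes letters in these windows and is not shown to be a used site.

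The 10 brightest stranded intervals had mean Con signals from 15.10 to 16.84. The brightest, chr11:22681800-22707775_R, had 1 feature at 16.84 ± 0.11 (SD, n = 5). Its sequence shared 45 bases in 1 run with a feature of Rps16, a protein of the small ribosomal subunit, which read 17.07. Next came chr19:5801802-5802597_R at 16.77 ± 0.21 (SD, n = 5), whose 3 features read 15.78 to 17.86. This interval lies within the span given on the array for NEAT2, chr19:5795689-5802671, another name for Malat1, an abundant nuclear RNA. A second interval of that span, chr19:5798135-5800557_R, read 13.34, and chr19:5795690-5797464_F, on the other strand, read 9.05. The nearest feature named NEAT2, 5910 bases from the bright interval, read only 11.345 in Con, and the feature named Malat1 read 11.01.

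Other bright intervals had 3 features. The features of chr17:17481706-17482457_R read 15.48 to 16.77, those of chr2:156213798-156216885_R 15.17 to 16.14 and those of chr6:116123643-116124550_F 15.14 to 15.81. The interval on chromosome 2 holds a feature of 2900097C17Rik. In chr16:43623175-43624069_F, 4086 bases from a feature of the transcription factor gene Zbtb20, they read 14.17 to 15.24. A wider range, 13.46 to 16.86, was seen in chr17:39982023-39983277_F, and this interval lies 1781 bases from a feature of Rn18s, the 18S ribosomal RNA.

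Bright intervals with a single feature often shared sequence with abundant mRNAs. The feature of chr7:108209996-108216032_R read 16.56 ± 0.12 (SD, n = 5) and shared 28 bases with Rps29, another ribosomal protein gene, at 17.03. That of chr17:48068261-48087905_F, at 16.55 ± 0.06 (SD, n = 5), shared 22 bases with the cytokine gene Mif at 16.84. That of chr4:33364774-33364898_R, at 15.56 ± 0.08 (SD, n = 5), shared 36 bases with Cox5b, a subunit of cytochrome c oxidase, at 15.69. That of chr2:167085700-167117795_R, at 15.10 ± 0.05 (SD, n = 5), shared 31 bases with Rps16. How much of these signals came from the mRNAs was not tested.

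Over all interval features, 283 (1.75%) shared a run of at least 20 bases with a feature outside the rule. For 75 the partner was not mapped within 5 kb of the interval, which includes any partner without a position. Of the 78 interval features above 14, 19 (24.4%) shared such a run. The median Con signal was 7.89 with a shared run and 6.40 without. All 60 bases were identical in 76 pairs, which serve as a technical check. Their Con signals differed by a median of 0.0874 and at most 0.455, and their MS5 changes by a median of 0.0414 and at most 0.466.

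Named genes were close to many intervals. Of the 3540 intervals, 589 (16.6%) held at least 1 feature of a named gene, on either strand, and 1111 did with a margin of 5 kb. The median distance to the nearest such feature was 15304 bases. Stranded intervals that held a named gene had a median Con signal of 6.83 and those that did not 6.54. Some overlapped known long RNAs. Over TUG1, chr11:3539787-3548811_R read 11.21 (3 features) and chr11:3542140-3546888_R 9.52 (3 features), while the wider interval chr11:3538125-3554450 read 7.08 on R (9 features) and 7.94 on F (10 features). The intervals chr1:42689799-42749799 over BRN1-A read 10.66 on R and 7.27 on F. Intervals over lincP21 were dim, at 6.02 to 7.10.

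The strands of an interval were compared in 1067 intervals, by the mean of each strand's features over 15 arrays. The means differed by more than 1 (log2) in 429 intervals (40.2%), with F brighter in 182 and R in 247, and by more than 2 in 205. The median absolute difference was 0.738. Spearman's rho between the strands was 0.119 over intervals, as a description. In 689 intervals both strands had a feature well above background on all arrays, in 310 only 1 strand did, and in 68 neither.

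The largest difference was in chr11:35805295-35817263, 4274 bases from a feature of Odz2, a teneurin gene. Its F feature read 14.54 to 14.89 over the 15 arrays and its R feature 5.78 to 6.37. The ranges did not overlap, and the means differed by 8.69. Because the sequences overlap in 47 bases, this interval sets the strands against each other at almost the same place. In chr4:141527564-141547339 F read 14.59 and R 6.09, with 1 feature each. In chr11:22681800-22707775, the interval of the brightest feature, R read 16.82 and F 8.73. In chr4:56013597-56020622 F read 14.61 and R 7.20. In chr4:136856064-136877219, with 5 features on each strand, R read 13.96 and F 6.56. That interval holds a feature of Cdc42, a small GTPase gene, on the R strand, which read 15.20 in Con. An R feature of the interval shared 35 bases with Cdc42. In chr2:167085700-167117795 R read 15.08 and F 8.29. The bright R features of this interval and of chr11:22681800-22707775 are those that shared 31 and 45 bases with Rps16. How much of the bright signal in these intervals came from the mRNAs was not tested.

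**Figure D2:**
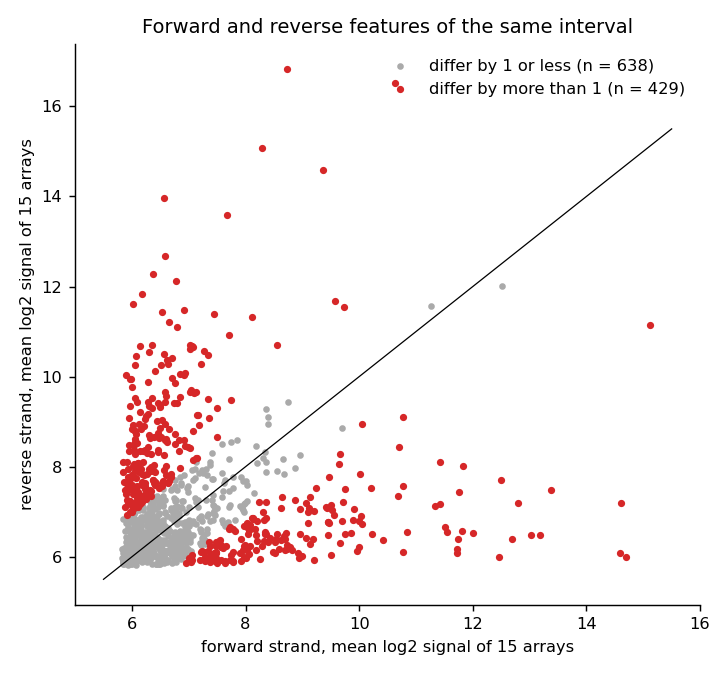
Mean log2 signal of the F and the R features of 1067 intervals over 15 arrays. Points far from the diagonal are intervals with a bright and a dim strand, and 429 differ by more than 1 (log2).

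The comparison of MS2 with Con asks how the lower morphine dose with stress differs from no treatment. At the threshold of the study's methods (a change over 1.5-fold and an unadjusted p under 0.05), 2 interval features were higher and 0 lower, beside 0.0162% of all features higher and 0.00718% lower. None passed an adjusted p of 0.05 in limma (smallest adjusted p 0.970), while 636 (3.93%) had an unadjusted p under 0.05, against 4.17% of all features. The median change was 0.0008 (log2).

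The first, at chr14:21462202-21462261 in chr14:21461716-21462270_F, read 8.42, 8.46, 8.78, 7.79 and 8.33 in Con and 9.10, 9.00, 8.79, 9.07 and 9.13 in MS2. All MS2 arrays were above all Con arrays. The difference was 0.66 ± 0.20 (SE; limma adjusted p 0.970; two-sided exact permutation p 0.00794, the smallest that 5 against 5 arrays allow). The second, at chr5:22929990-22930049 in chr5:22801058-22939737_F, read 10.35 to 11.14 in Con and 10.90 to 12.05 in MS2, which overlap, with a difference of 0.59 ± 0.23 (SE; exact permutation p 0.0476). Its 9 partners in the interval changed by -0.13 to 0.13.

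The count of 2 (all features 13) moved to 7 without Con replicate 16, 1 without Con replicate 17 and 0 without Con replicate 18 (all features 19, 14 and 7). It was 5, 8, 6 and 4 without MS2 replicates 1, 3, 4 and 7 (all features 24, 34, 9 and 25). The interval share exceeded that of all features without Con replicate 16 (0.0433% against 0.0341%) and without MS2 replicate 4 (0.0371% against 0.0162%). In the other settings named it did not. Other scaling gave more. With no offset 52 were higher and 39 lower, together 0.562% of the interval features against 0.413% of all features. With the processed signal scaled to the 75th percentile 160 were higher and 81 lower, together 1.49% against 0.937%.

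MS5 was compared with Con for the higher dose. Here 2 interval features were higher and 9 lower, which is 0.0124% and 0.0556% of them, beside 0.0449% higher and 0.183% lower of all features. The smallest adjusted p was 1.00 in limma, and 512 (3.16%) had an unadjusted p under 0.05, against 3.91% of all features. The median change was 0.0041 (log2). Among features well above background on all arrays, 11 of 7941 interval features (0.139%) and 106 of 28342 others (0.374%) passed. Of 29 interval features with more than 1.5-fold change, 18 had a p that was not under 0.05.

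**Figure D3:**
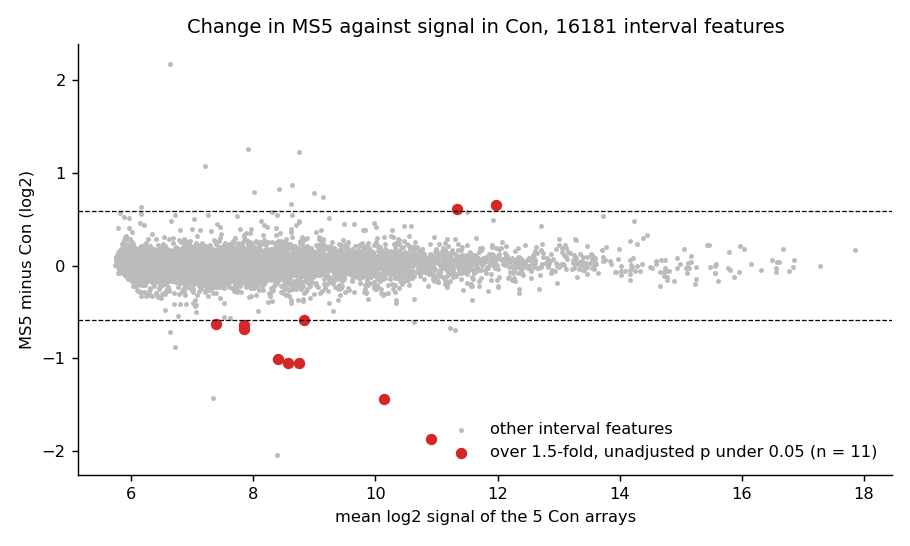
Change of each interval feature in MS5 against Con (log2) by its mean log2 signal in Con. The 9 lower and 2 higher features past the threshold are marked.

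The largest difference was at chr8:67554789-67554848, 1 of 10 features of chr8:67542714-67561694_F. It read 10.06, 11.75, 11.16, 10.54 and 11 in Con, 10.79, 11.25, 10.40, 10.45 and 9.98 in MS2, and 10.27, 7.78, 11.19, 9.56 and 6.39 in MS5. The low MS5 values were those of replicates 9 and 14, and the groups overlapped. The MS5 change was -1.86 ± 0.70 (SE; limma p 0.0176; exact permutation p 0.0794). None of its F partners read above 6.45 in Con.

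A similar order of arrays was seen at chr17:26913157-26913216 in chr17:26911397-26917047_R. Con arrays read 9.24, 11.21, 10.12, 9.64 and 10.51, and MS5 arrays 9.41, 7.80, 10.55, 8.85 and 6.90. The groups overlapped, and the MS5 change was -1.44 ± 0.56 (SE; exact permutation p 0.0952). Features of the F strand of the interval read 9.12 to 10.95 and changed by 0.00 to 0.10.

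Adjacent features of chr14:49288962-49413023_F moved together. That at chr14:49412903-49412962 read 8.06, 8.99, 8.92, 8.35 and 8.51 in Con and 8.19, 6.61, 8.30, 8.05 and 6.41 in MS5, a difference of -1.05 ± 0.38 (SE; exact permutation p 0.0317). That at chr14:49412964-49413023 differed by -1.01 ± 0.36 (SE; exact permutation p 0.0317). The interval starts 11048 bases from a feature of Otx2, a homeobox gene that choroid plexus cells express. That Otx2 feature read 11.99 in Con and changed by -1.26 (limma p 0.031). The adjacent features and Otx2 were all highest on MS2 replicate 4, at 9.44, 9.05 and 13.18. That array was high in hypothalamus and thalamus markers, and its choroid plexus mean was 11.21. A feature of the antisense transcript Otx2os1 inside the interval changed by -0.35 (p 0.0567). The adjacent features lie at the end of this 124062-base interval that is far from Otx2. The feature at the near end, chr14:49289011-49289070, read 6.32 in Con and changed by -0.24 (limma p 0.0839).

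In chr1:90340543-90359181_R, 17540 bases from a feature of Spp2, all 3 features were lower. That at chr1:90340592-90340651 read 8.32, 9.20, 9.11, 8.56 and 8.57 in Con and 8.37, 6.83, 8.67, 7.90 and 6.75 in MS5, a difference of -1.05 ± 0.34 (SE; exact permutation p 0.0556). Its partners changed by -0.38 (p 0.017) and -0.49 (p 0.0046), short of the fold threshold.

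The remaining lower features changed by -0.68 to -0.59. They lay in chr14:105497388-105511063_F, where Con arrays read 7.42 to 8.38 and MS5 arrays 6.77 to 7.64, chrX:138966975-138981525_F (7.35 to 8.49 and 6.81 to 7.91), chr17:84355587-84356863_F (7.13 to 7.56 and 6.17 to 7.26) and chr7:99879368-99889978_F (8.14 to 9.49 and 7.71 to 8.57). In all 4 the groups overlapped. A partner in chr17:84355587-84356863_F changed by -0.50 (p 0.0106), whereas a partner in chr14:105497388-105511063_F that read 10.64 changed by 0.08. Partners in chrX:138966975-138981525_F that read 10.54 to 10.93 changed by -0.22 to -0.05. In chr7:99879368-99889978_F the partner at chr7:99889657-99889716 changed upward, by 0.54 (limma p 0.032), and its other F partners by -0.40 to 0.03.

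Choroid plexus markers were lower in MS5 in 16 of 16 genes, with a median change of -1.29. Of these, 14 genes passed the same threshold, beside 0.183% of all features lower. The list was drawn up with earlier results of these data known. It holds Aqp1, Calml4, Cldn2, Folr1, Slc4a5, Sulf1, Kl, Clic6 and Otx2, which the paper reported as lower after morphine from these same arrays. The counts for this list are therefore a description and not an independent result. Choroid plexus is the tissue in the ventricles, next to the hippocampus, that makes cerebrospinal fluid. Its marker mean was 11.10 to 12.02 in Con, 11.15 to 11.75 in MS2 and 8.74 to 11.48 in MS5, and all 16 genes had a feature well above background on all 15 arrays. Median MS5 changes of the other lists were -0.457 for blood (4 of 4 genes lower by sign), -0.255 for meninges (6 of 6), -0.169 for hippocampal neurons (7 of 10), 0.374 for oligodendrocytes (0 of 6), 0.044 for microglia (1 of 6) and 0.0088 for astrocytes (2 of 6). None of the genes in these 6 lists passed the threshold. Over the 10 Con and MS2 arrays the lower features followed this mean to differing degrees. The Con arrays also had a part in the comparison that picked these features, so this is not an independent check. Pearson's r was 0.948 for chr8:67542714-67561694_F (rho 0.964; permutation p for r and for rho 4.0e-05; adjusted p for r over 13 features 0.00026) and 0.957 for chr1:90340543-90359181_R (rho 0.915; permutation p 3.0e-05 and 0.00068). Without the 2 arrays farthest from the median these r were 0.942 and 0.903.

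The other lower features had r of 0.846 (chr17:84355587-84356863_F), 0.763 (chrX:138966975-138981525_F), 0.626 (chr17:26911397-26917047_R), 0.576 (chr14:105497388-105511063_F), 0.574 and 0.460 (chr14:49288962-49413023_F) and -0.088 (chr7:99879368-99889978_F). The first and the second of these had adjusted permutation p of 0.0189 and 0.0249 (rho 0.806 and 0.818; both adjusted p for rho 0.0188), and the others did not pass 0.05 for r. Without the 2 farthest arrays r was 0.792 and 0.539. Fewer cells of a type and less RNA per cell cannot be told apart in such tissue samples, and the part of choroid plexus tissue in the lower signals was not tested.

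**Figure D4:**
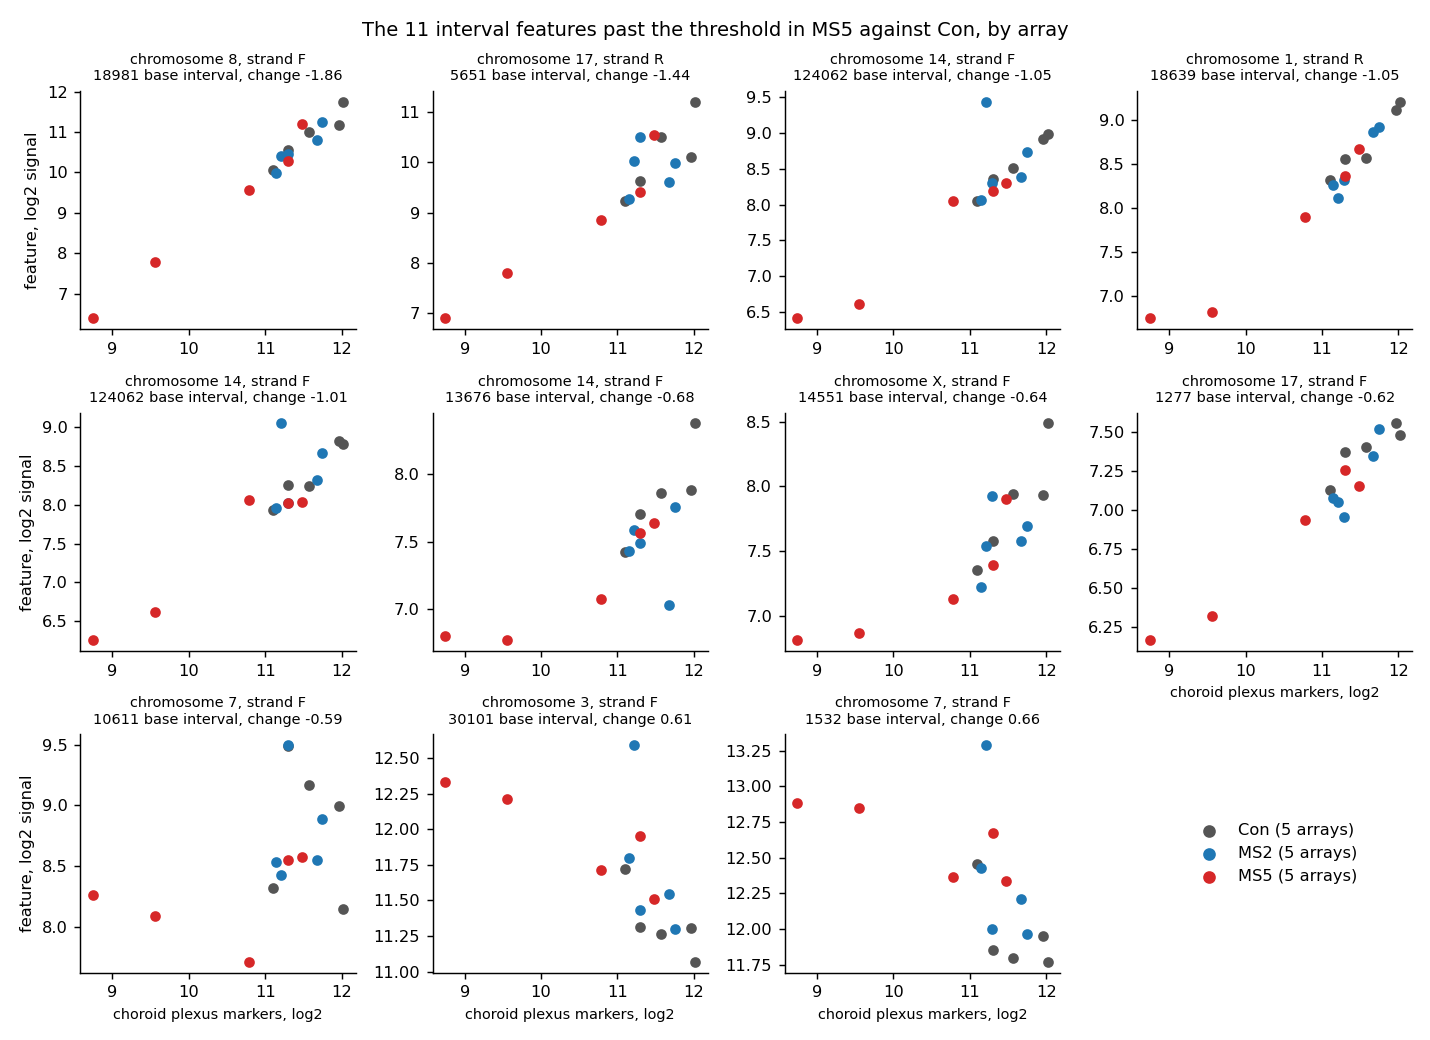
Log2 signal of features past the threshold in MS5 against the mean log2 signal of choroid plexus markers, 1 point per array. MS5 replicates 9 and 14, at 9.55 and 8.74 on the horizontal axis, are the lowest arrays of the strongest lower features.

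With MS5 replicates 9 and 14 left out, 1 interval feature was higher and 0 lower (all features 26 and 15, against 25 and 102 with every array). The 9 lower features then changed by -0.56 to -0.27. These arrays were picked after their low values were seen, so the loss of lower calls was largely set by that choice. Leaving out 1 array turned the balance of 2 higher and 9 lower without MS5 replicate 9, to 4 and 3 (all features 42 and 64), and without MS5 replicate 13, to 11 and 8 (all features 35 and 113). Without Con replicates 15 and 16 in turn it was 5 and 13, and 1 and 6. Without MS5 replicates 8, 12 and 14 in turn it was 3 and 15, 6 and 16, and 1 and 5. In these 7 settings 0.0371% to 0.136% of the interval features and 0.11% to 0.383% of all features passed. With the slide as a block 2 were higher and 7 lower, the features of chr17:84355587-84356863_F and chr7:99879368-99889978_F having dropped out, beside 0.0287% higher and 0.174% lower of all features. All 9 changes were negative on either slide. Past the threshold were 1 on slide 1, where MS5 had replicates 8 and 13, and 6 on slide 2, which held replicates 9, 12 and 14. Over all interval features, however, slide 1 alone gave 29 higher and 3 lower (all features 0.598% and 0.104%) and slide 2 alone 2 higher and 20 lower (0.018% and 0.323%). With no offset 42 were higher and 64 lower, together 0.655% of the interval features against 0.72% of all. With the processed signal 110 were higher and 91 lower, 1.24% against 1.12%, so the lower share of interval features than of all features past the threshold did not hold there.

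The higher features were single bright ones among dim partners. That at chr7:71094345-71094404 in chr7:71093563-71095094_F, 10650 bases from a feature of the transcription factor gene Klf13, read 12.46, 11.77, 11.95, 11.85 and 11.80 in Con, 12.21, 11.97, 13.29, 12.00 and 12.42 in MS2, and 12.67, 12.84, 12.34, 12.37 and 12.89 in MS5. Only Con replicate 15 reached the MS5 range. The difference was 0.66 ± 0.22 (SE; exact permutation p 0.0238).

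That at chr3:127184302-127184361 in chr3:127170996-127201096_F read 11.72, 11.07, 11.30, 11.31 and 11.26 in Con and 11.95, 12.21, 11.51, 11.72 and 12.33 in MS5, a difference of 0.61 ± 0.22 (SE; exact permutation p 0.0238). Both features were highest on MS2 replicate 4, at 13.29 and 12.59, the array low in hippocampal neuron markers. With both MS5 replicates 9 and 14 left out their changes were 0.49 and 0.39 and did not pass. Their r with the choroid plexus mean over Con and MS2 arrays was -0.576 and -0.634 (rho -0.745 and -0.806; adjusted permutation p for r 0.122 and 0.0821, for rho 0.0387 and 0.0188), and without the 2 farthest arrays -0.500 and -0.526.

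All MS5 arrays lay above or below all Con arrays for 118 interval features (0.729%), against 0.832% of all features, with 59 above and 59 below. Of these 80 were well above background throughout at least 1 group. In chr3:45163252-45179177_R, 7655 bases from a feature of the protocadherin gene Pcdh10, 3 of 5 features lay above, by 0.55, 0.50 and 0.48 (limma p 0.0038, 0.0036 and 0.0065). Also above were features of chr17:22815742-22828592_R, by 0.46, and chr2:32950586-32984936_F, by 0.43. Below were features of chr2:71205705-71226510_F, by -0.41 (p 0.0447), chr7:119735208-119822808_R, by -0.38 (p 0.00078), chr18:35204950-35216650_R, by -0.34 (p 0.0007), chr8:24327427-24332452_R, by -0.32 (p 0.003), and chr5:152006587-152008784_R, by -0.30 (p 0.0005). Every adjusted p was 1.00, and none reached 1.5-fold. The partners of each feature in its interval had median changes of 0.45 to 0.46 in chr3:45163252-45179177_R. They were 0.033 in chr17:22815742-22828592_R and 0.018 in chr2:32950586-32984936_F. For the features below, in the order given, the partner medians were -0.02, -0.05, -0.16, -0.05 and -0.25.

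MS5 against MS2 compares the doses under the same stress. None was higher and 4 were lower, beside 0.018% of all features higher and 0.111% lower. In limma 0 passed an adjusted p of 0.05, and 675 (4.17%) had an unadjusted p under 0.05, against 3.97% of all features. The 4 were features already named: that on chromosome 8 differed by -1.53 (p 0.0441; exact permutation p 0.127), the adjacent features of chr14:49288962-49413023_F by -1.07 and -1.0 (p 0.0127 and 0.0133) and that of chr1:90340543-90359181_R by -0.79 (p 0.0361). This comparison shares its MS5 arrays with the one above. None of the 4 passed without MS5 replicates 9 and 14 (all features 15 higher and 7 lower). The count was 2 without MS2 replicate 3 or MS5 replicate 14 (all features 33 and 15). It was 10, 8, 8 and 9 without MS2 replicates 4 and 7 and MS5 replicates 8 and 12 (all features 104, 83, 91 and 106). Slide 1 alone gave 26 higher and 5 lower (all features 0.576% and 0.12%), and slide 2 alone 37 and 19 (0.332% and 0.224%). With no offset 42 were higher and 77 lower, together 0.735% of the interval features against 0.664% of all, and with the processed signal 82 and 152, 1.45% against 1.06%.

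The spread over all 15 arrays, with no regard to group, showed which features varied most, and those named here were chosen after their values were seen. The median SD was 0.0967 (log2). It exceeded 0.5 for 100 interval features and 1 for 12. Of the 100, the array farthest from the median was MS2 replicate 4 for 48, MS5 replicate 14 for 12 and MS5 replicate 8 for 11.

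Of the 12, 6 were high on a single array. The feature of chr12:109274248-109274547_F read 17.60 on MS2 replicate 1 and at most 5.94 on the others. That of chr8:129102060-129109035_F read 17.58 on MS5 replicate 14 and at most 6.82 elsewhere, so that its MS5 change of 2.17 had a limma p of 0.202. That of chr6:83368261-83407280_F read 17.00 on Con replicate 17 and at most 6.58 elsewhere. Partners of these features in the same interval had SDs of at most 0.280.

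Intervals with 2 such features varied in parallel. In chr13:56851404-56851796_R, 7767 bases from a feature of Smad5, which encodes a mediator of BMP signalling, the feature at chr13:56851593-56851652 read 6.91, 7.43, 8.18, 6.84 and 10.18 in Con, 7.83, 7.43, 11.62, 9.39 and 7.09 in MS2, and 11.20, 6.98, 9.03, 9.78 and 8.85 in MS5. MS2 replicate 4 and MS5 replicate 8 were highest, and the groups overlapped. The same arrays were highest in chr8:83210957-83219451_F, which holds a feature of the extracellular matrix gene Frem3, at 11.41 and 10.61 for the feature at chr8:83219229-83219288, against 7.93 to 9.67 elsewhere. These arrays also had the highest means of hypothalamus and thalamus markers, 10.74 and 9.22. In MS5, 1 of 10 such genes was lower, the median change was 0.503, and 3 genes passed the threshold upward. The median change of the list in MS2 was 0.633. Of the 10 genes, 8 had a feature well above background on all arrays. On MS5 replicate 8 Avp, Oxt, Trh, Tcf7l2, Gbx2 and Prkch were above every Con array, but Hcrt, Pmch, Lhx9 and Pomc were not. Oligodendrocyte markers were also high on MS2 replicate 4 and MS5 replicate 8, at 11.94 and 12.24. They were high too on Con replicate 19, at 11.97, where the chromosome 13 feature read 10.18 and the hypothalamus and thalamus mean was 8.06. The part of other cell types or neighbouring tissue in these signals was not tested. In MS5 the 4 features changed by 0.83 to 1.26 with limma p from 0.161 to 0.221.

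**Figure D5:**
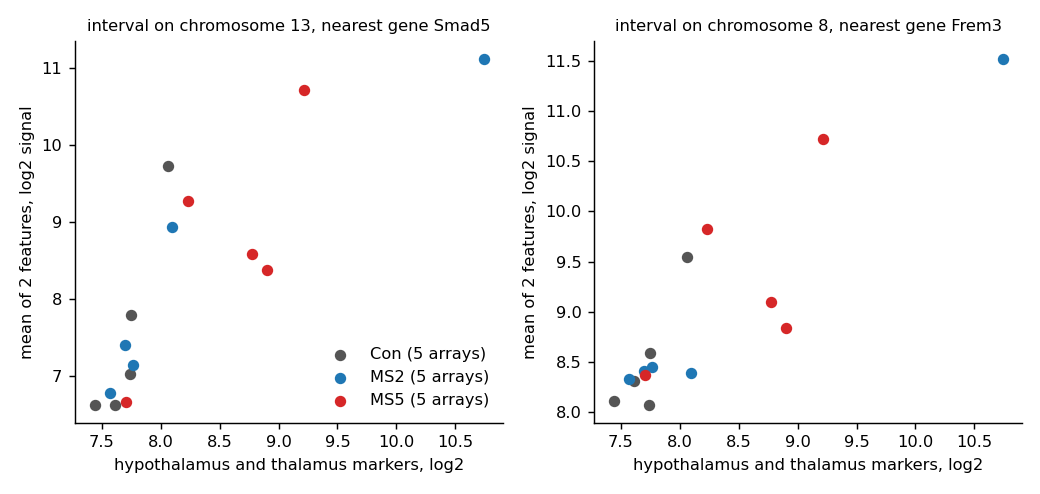
Mean log2 signal of the 2 most variable features of an interval, for chr13:56851404-56851796_R (nearest gene Smad5) and chr8:83210957-83219451_F (Frem3), against the mean log2 signal of hypothalamus and thalamus markers, 1 point per array. The array at the far right is MS2 replicate 4, at 10.74, and it is the highest in both plots.

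Named long non-coding RNAs offered a comparison from outside the rule. Of 40 listed, 28 were on the array and 25 had a feature well above background on all arrays. None passed the threshold. In MS5 19 of 28 changed upward by sign, with a median of 0.0344, and 1 had an unadjusted p under 0.05: Kcnq1ot1, an imprinted antisense RNA, at 0.17 (adjusted p 1.00). In Con the 3 features of Meg3, an imprinted RNA abundant in neurons, read 14.34 to 16.63. The 2 features of Snhg11 read 12.62 and 15.60, and the 1 feature of Peg13 read 14.57.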

How the data were processed

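The authors deposited the scanner's intensity per spot (Agilent Feature Extraction 10.7.1.1, per the file headers) and a table of log2 values, background-adjusted with normexp and quantile normalized. Here, in R 4.3.3 with limma 3.58.1, the mean signal and local background of 62976 spots were adjusted with normexp (offset 50) and quantile normalized, and brought to log2 values. Control spots (3671) were removed, and repeated spots averaged. For the interval features this gave the deposited values within 5e-09. Offset and quantile normalization compress changes of dim features. No interval spot (0) was saturated. A single limma model held all 3 groups, and p were adjusted by Benjamini-Hochberg across the 55681 features. Permutation tests of 1 feature were two-sided and exact over 252 splits, and those of correlations used 100000 resamples, in Python 3.11.15 with scipy 1.17.1. The steps were tested on simulated data. The features, gene lists and tests were chosen with earlier results of these data known. Named were features past the threshold, the brightest, shortest and longest intervals, the largest strand differences, and the 5 largest changes each way among those with groups apart. Alternatives were other scalings, array weights, filters, slides and arrays left out. The miR arrays were not analysed here.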

Additional observations from a re-analysis of the deposited data

Results flagged for a closer look

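With 5 arrays per group, the highest or lowest array was compared with the nearest of the others as a share of the group's range (Dixon's critical value 0.71). Of 55 groups tested 2 exceeded it, a number that chance alone can give. The feature of chr7:71093563-71095094_F at 71094345 read 12.46 on Con replicate 15, while the other Con arrays read 11.77 to 11.95. The share of interval features well above background was 50.5% on MS2 replicate 5, against 62.9% to 66.9% on the other MS2 arrays, and that array also had the lowest median spot signal of all.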

How the results depend on the processing

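No paired analysis was made, because each array is a different animal and the litter of each array is not given. The counts of interval features past the threshold were 2 (MS2 against Con), 11 (MS5 against Con) and 4 (MS5 against MS2), in that order below. Over all features they were 13, 127 and 72. The interval counts were 91, 106 and 119 with no offset (all features 230, 401 and 370). With the processed signal scaled to the 75th percentile they were 241, 201 and 234 (all features 522, 623 and 592). With array weights they were 1, 19 and 8 (all features 9, 203 and 158). With the mean of each stranded interval they were 0, 2 and 1 (all tested 11, 117 and 68). With only the 2 groups compared, MS5 against MS2 gave 2 (all features 38). Alternatives chosen after seeing the data were single slides and leaving out both MS5 replicates 9 and 14. Slide 1 gave 32 (29 higher, 3 lower) and 31 (26 and 5) for the MS5 comparisons (all features 391 and 388). Slide 2 gave 45, 22 and 56 (all features 294, 190 and 310). Without MS5 replicates 9 and 14 the MS5 comparisons gave 1 and 0 (all features 41 and 22). Leaving out 1 array gave 0 to 8, 6 to 22 and 2 to 10 (all features 7 to 38, 61 to 213 and 15 to 106). An adjusted p under 0.05 was reached by 2 features in each MS5 comparison on slide 1, where MS5 had 2 arrays (30 and 39 of all features), and by 0 otherwise. With the slide as a block the counts were 2, 9 and 4 (all features 12, 113 and 54). Median changes reached 0.0406 (MS2) and 0.0324 (MS5) with the processed signal, and -0.0118 (MS5 against Con) and -0.0079 (MS5 against MS2) on slide 1. The median Con signal was 5.119 with no offset. The count of 429 intervals with unequal strands was 205 at a difference of 2, 663 by the brightest feature of each strand and 775 with the processed signal. With a 5 kb margin 1111 intervals held a named gene. Spearman's correlation of signal with interval length was 0.141 by the brightest feature. For single features past the threshold, 271 of 355 alternative values kept direction and call, 84 lost the call and 0 reversed. The cause of these differences was not tested. Detection limits what is said of dim features: 9608 interval features cleared the background on all arrays of at least 1 group.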
